A study of Mus musculus with 46 samples.

Results

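The liver was followed at room temperature (RT) on 8 of the 46 arrays of the series, which hold total RNA of liver, heart and brain of mice, each hybridised to a 1-colour Agilent array of 1881 mouse miRNAs. All 8 arrays carried the label liver and the label RT, and the storage times in the labels were 0, 1, 3, 6, 12, 24, 48 and 96 h, with 1 array at each time. The 3 arrays of 0, 1 and 3 h, here the early arrays, were set against the 3 arrays of 24, 48 and 96 h, the late arrays. The arrays of 6 and 12 h are shown between them as the mid arrays. By the study's methods the organs came from fresh cadavers of male C57BL6 mice of an Il1a knock-out strain, so that early and late arrays share the deletion, and a liver was divided into 8 parts that were stored before transfer to RNAlater. The 8 arrays are thus parts of 1 liver of 1 animal, the 3 arrays of a group are 3 times and not repeats of 1 time, and every p-value below measures the spread among these parts only. The ages of the animals are not given in the sources used here, and the methods give a slightly later time where the labels give 12 h.

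The RNA integrity number (RIN), a score of how intact the ribosomal RNA is, was 7.1, 6.0 and 4.1 on the early arrays, 2.8 and 2.7 on the mid arrays and 2.7, 2.4 and 2.3 on the late arrays. All 8 arrays lay on 1 slide, the early arrays and that of 6 h in its first row and the others in its second row. Storage time, RIN and slide row therefore cannot be told apart. The summed signal of the detected miRNAs ran from 210659 units at 0 h to 541770 units at 96 h with no order by group, and 0 miRNA spots were saturated. The label of the tissue was checked on miR-122-5p, the most abundant miRNA of hepatocytes, which was detected on all 8 arrays.

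miRNAs are short RNAs cut from a hairpin precursor, and each hairpin can give a 5p and a 3p strand. Bound to an Argonaute protein they pair with target mRNAs through their seed, the bases 2 to 8, and lower the output of these mRNAs. In liver, miR-122 is the hallmark of hepatocytes, while miRNAs of the let-7 family are found in most differentiated cells. In dead tissue, long RNAs such as ribosomal RNA are broken into fragments. An array probe reports whatever labelled RNA binds it, so that a value is the signal at a probe and not a count of molecules.

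The sequences on which the results turn are given from RefSeq on GRCm38.p6, 5′ to 3′, with the seed in capitals. The first set shows miRNAs whose late values were lower: the let-7 miRNA with the highest early value, a miRNA of hepatocytes, a miRNA found in many cell types, a miRNA of the endothelium and a miRNA of blood cells.
let-7f-5p (chr13:48537889-48537910, - strand and chrX:151912353-151912374, + strand): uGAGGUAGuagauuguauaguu
miR-192-5p (chr19:6264857-6264877, + strand): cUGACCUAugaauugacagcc
miR-21a-5p (chr11:86584120-86584141, - strand): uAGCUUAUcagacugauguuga
miR-126a-3p (chr2:26591402-26591423, + strand): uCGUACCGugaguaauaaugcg
miR-142a-3p (chr11:87756903-87756925, + strand): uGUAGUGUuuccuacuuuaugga
Also lower on the late arrays were 4 miRNAs with numbers of 3000 or higher, 3 of which share the letters AUCCCA near the 5′ end.
miR-6366 (chr16:18165093-18165114, - strand): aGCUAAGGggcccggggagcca
miR-3963 (chr3:151023839-151023857, - strand): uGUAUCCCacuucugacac
miR-3968 (chr11:115447969-115447989, - strand): cGAAUCCCacuccagacacca
miR-5100 (chr11:60728698-60728718, + strand): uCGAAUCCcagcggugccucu
Among the miRNAs detected on all 8 arrays, many of the largest rises belong to sequences with repeats of UG or runs of G. The UG repeats are shown first.
miR-3082-5p (chr17:25831406-25831427, - strand): gACAGAGUgugugugucugugu
miR-574-5p (chr5:64970328-64970350, + strand): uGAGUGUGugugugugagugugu
miR-1187 (chr5:82798964-82798986, - strand): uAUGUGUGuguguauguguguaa
The miRNAs with runs of G follow.
miR-6931-5p (chr11:102999896-102999916, - strand): uGGGGUGGggagugggggacu
miR-2861 (chr2:32712819-32712837, - strand): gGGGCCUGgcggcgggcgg
miR-8110 (chr8:89024791-89024811, + strand): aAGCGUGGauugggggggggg
miR-5126 (chr1:84695890-84695911, + strand): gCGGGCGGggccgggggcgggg

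The first comparison asked how the miRNA profile of the liver after a day or more at RT differed from that of its first hours. It was made on the authors' log2 values after variance stabilizing normalization (VSN), which shifts and scales the arrays to each other, over the 815 miRNAs that Feature Extraction called detected on at least 5 of 45 arrays. limma, fitted across all 815, called 349 miRNAs higher (42.8%) and 289 lower (35.5%) on the late arrays at a Benjamini-Hochberg adjusted p under 0.05, and 655 had an unadjusted p under 0.05. The 3 late values lay above all 3 early values for 360 miRNAs (44.2%) and below them for 292 (35.8%). Most of the tested miRNAs were thus called, so that a group of miRNAs stands out only where its share is far from these percentages.

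How many miRNAs were called lower depended on the scaling between arrays. VSN lowered the late arrays: the VSN value minus the log2 signal had a median of 1.04, 0.56 and 0.39 on the early arrays and of -0.85, -0.61 and -1.27 on the late arrays. With no scaling between arrays 412 were called higher and 56 lower, with the 75th percentile of all miRNAs as the scale 211 and 265, and with 2 control probes of the array, dmr_3 and dmr_6, as the scale, an alternative chosen after seeing the data, 416 and 41. Not all control probes were level. The signal of dmr_285 was 6075, 5394 and 4188 early and 2088.5, 1901 and 1791 late. That of dmr_31a was 2442, 1908 and 1468 early and 737.5, 672 and 675 late. Scaling by these 2 falling probes was not tested. The median difference of all 815 was 0.69 on the VSN scale and 1.58 with no scaling. A value called lower below is therefore lower relative to the rest of the array. Of the 289 called lower, 56 were called lower and 0 higher with no scaling, and 222 had a negative difference. Of the 349 called higher, 326 were also called higher with no scaling.

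**Figure D1:**
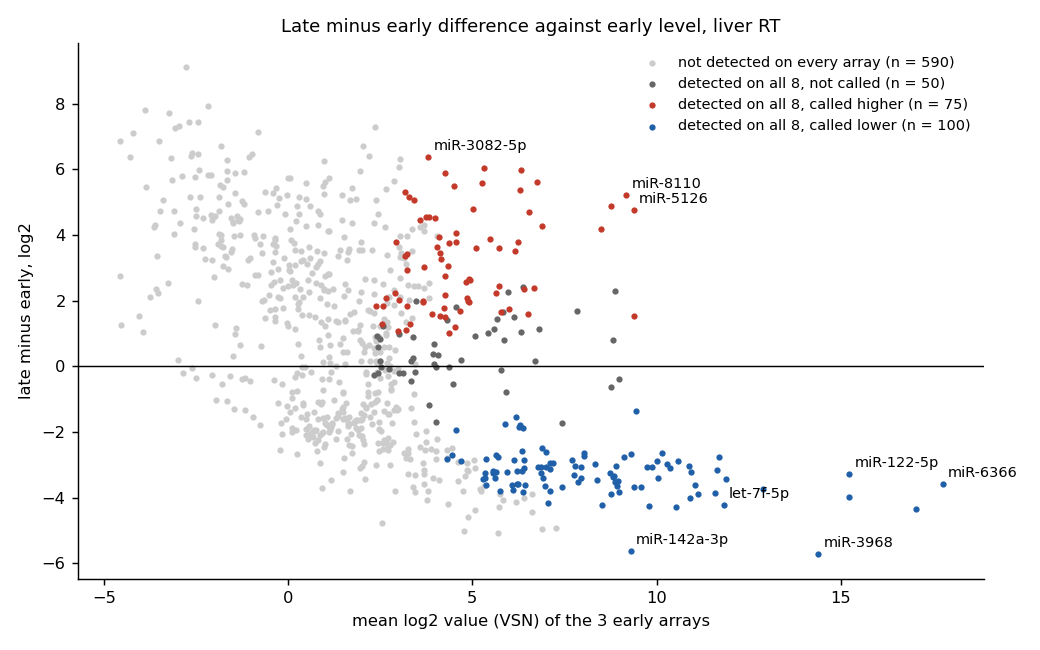
Each point is 1 of the 815 tested miRNAs, with the mean log2 value (VSN) of the 3 early arrays on the x axis and the late minus early difference in log2 on the y axis. Among the 225 detected on all 8 arrays, the 100 called lower (blue) reach the highest early values and the 75 called higher (red) have early values below 10, while many of the largest rises in grey start below detection. The early mean enters both axes.

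The miRNAs were next divided by the arrays on which they were detected. On all 8 arrays 225 were detected, of which 75 were called higher and 100 lower. A further 180 were detected on all 3 late arrays and on no early array, and 162 of these were called higher. The reverse, detected on all 3 early arrays and on no late array, held for 11 miRNAs, and all 11 were called lower. The 180 and the 11 were chosen by detection on the same arrays that the calls compare. The choice itself favours these directions, so that the calls among them are a description only. On none of the 8 liver arrays 123 of the tested miRNAs were detected. Of these 80 were called lower and 9 higher, and since their values lie below detection on every array, these calls describe the background level and not a miRNA.

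More miRNAs were detected as storage went on. The flag of Feature Extraction was set for 310, 368 and 430 miRNAs on the early arrays, for 576 and 525 on the mid arrays, and for 704, 639 and 726 on the late arrays. The groups did not overlap. The mean was 369 ± 60.0 (SD, n = 3 times) on the early and 690 ± 45.2 on the late arrays, with p = 0.1 in a 2-sided exact permutation test, the smallest value that 3 against 3 allow. When a miRNA was counted as detected only if at least 50% of its spots were well above background, the means were 259 and 531.

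Most of the gain lay in miRNAs with high numbers. The numbers in miRNA names follow the order of registration, so that low numbers are the miRNAs found first and often the most conserved. With numbers of 3000 or higher, 98, 119 and 158 were detected on the early arrays and 350, 340 and 392 on the late arrays. With numbers under 1000, 192, 228 and 249 were detected early and 306, 256 and 281 late. The high numbers made up 31.6% of the detected miRNAs at 0 h and 54.0% at 96 h. Among the tested miRNAs with numbers of 3000 or higher, 207 of 308 were called higher and 23 lower, with a median difference of 2.52. Under 1000 the figures were 110 higher and 260 lower of 459, with a median of -1.59, and 114 of the 459 were detected on no liver array at RT. With no scaling between arrays the balance turned to 125 higher and 50 lower, with a median of 0. Among the miRNAs detected on all 8 arrays the medians were 1.82 (n = 78) and -2.95 (n = 130). Of the 78, 45 were called higher and 7 lower, or 63 and 4 with no scaling. Of the 130, 18 were called higher and 90 lower, or 30 and 23 with no scaling.

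**Figure D2:**
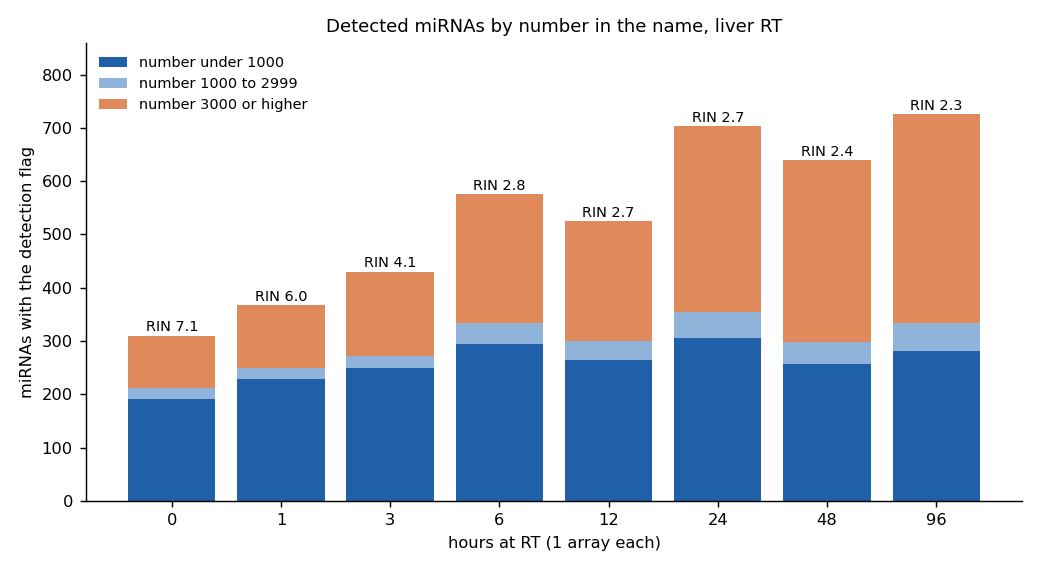
Bars give the number of miRNAs with the detection flag on each of the 8 liver RT arrays, by the number in the miRNA name, and the RIN of the RNA is written above each bar. The count rises from 310 at 0 h to 726 at 96 h, and the part with numbers of 3000 or higher (orange) rises from 98 to 392.

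The signal was also spread over more miRNAs late. The 10 brightest miRNAs of an array held 92.5%, 90.1% and 88.5% of the detected signal on the early arrays and 67.9%, 65.9% and 64.2% on the late arrays. miR-6366, the brightest early, held 46.9% of the signal of the 0 h array and 5.20% of that of the 96 h array. miR-5126 went the other way, from 0.0985% to 9.01%. As a whole, the miRNAs with numbers of 3000 or higher held a smaller share of the signal late although more of them were detected, with 80.3% ± 2.21 (SD, n = 3 times) early and 73.7% ± 1.94 late (p = 0.1, 2-sided exact permutation test, the smallest possible). miR-122-5p held 6.44% on the first array, 9.44% on that of 6 h and 1.06% on the last. These are shares of signal, and since probes differ in brightness they are not shares of molecules.

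All 10 miRNAs with the highest early values were called lower. The 10 were picked by their early values, which also enter the difference, so that the choice itself favours a negative difference. With no scaling the calls of miR-122-5p, let-7f-5p, miR-22-3p and miR-29a-3p were lost, and the others of the 10 kept theirs. Relative to the array, miR-122-5p stood at 14.72, 15.47 and 15.47 at 0, 1 and 3 h, at 15.23 and 14.77 at 6 and 12 h, and at 13.13, 11.49 and 11.19 at 24, 48 and 96 h on the log2 scale. It was still at its early level at 12 h, and all 3 late values lay below all others. The late minus early difference was -3.28 ± 0.57 (SE), a 9.75-fold lower level (limma, adjusted p = 0.00159). With no scaling it was -1.72 (adjusted p = 0.0558), so that the call rests on the scaling.

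miR-6366 had the values 17.59, 17.91 and 17.80 early, 16.86 and 16.47 at 6 and 12 h and 15.17, 13.85 and 13.49 late. It was lower at 6 h already, and the groups did not overlap (difference -3.60 ± 0.49, limma adjusted p = 0.000729, and -2.04 with no scaling, adjusted p = 0.0133). The 3 miRNAs with AUCCCA were also lower on every late array than on any early array. miR-3968 stood at 13.93, 14.53 and 14.67 early and at 11.25, 8.03 and 6.66 late, and its difference of -5.73 ± 1.02 was the most negative among the miRNAs detected on all 8 arrays (limma adjusted p = 0.00178). miR-3963 stood at 16.66, 17.12 and 17.35 early and at 14.68, 12.40 and 10.98 late, a difference of -4.36. miR-5100 stood at 14.76, 15.42 and 15.50 early and at 11.96, 11.24 and 10.56 late, a difference of -3.98. Unlike most called lower, miR-6366 and these 3 were called lower with no scaling as well. After normexp, a correction of the spot background, the differences of miR-6366 and miR-3963 kept their sign but no longer passed, at -1.77 (adjusted p = 0.0779) and -2.93 (adjusted p = 0.0872), and after quantile normalization that of miR-6366 was -1.49 (adjusted p = 0.0588). The letters AUCCCA occurred in 4 of 680 tested miRNAs with a known sequence (0.588%), all 4 called lower, and in 7 of 1679 mature miRNAs of RefSeq (0.417%). Of all 680, 249 were called lower. This motif was picked after the values were seen.

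**Figure D3:**
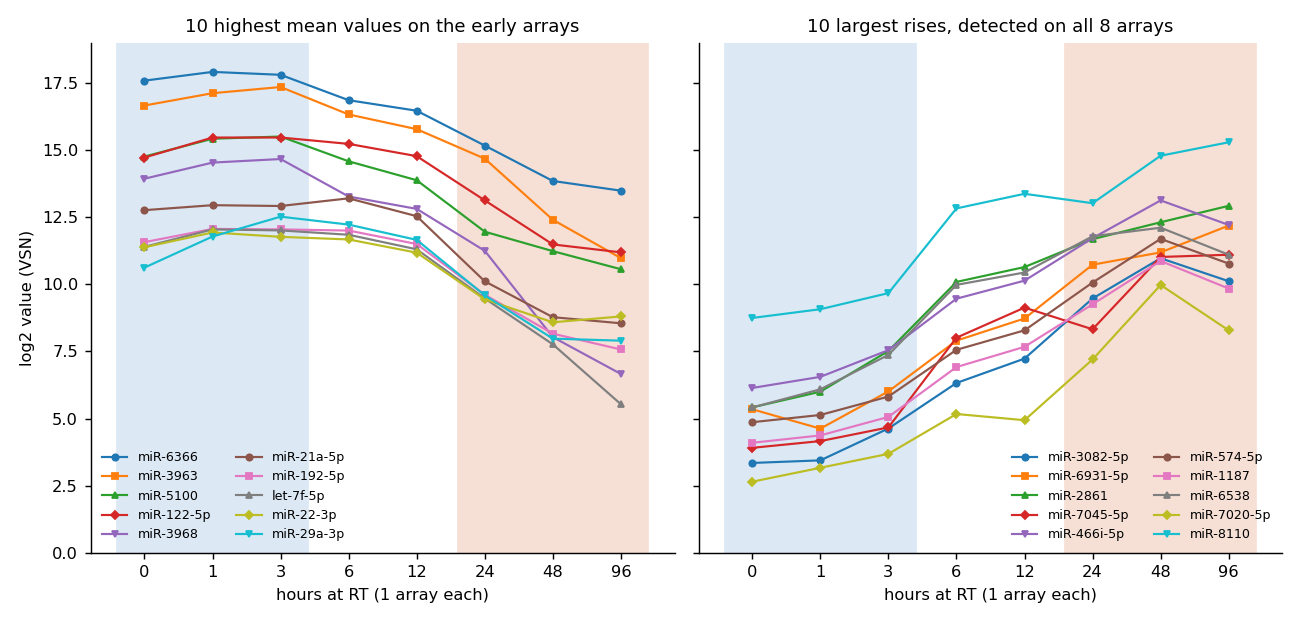
Log2 values (VSN) on the 8 liver RT arrays, with hours at RT on the x axis at even steps. The left panel holds the 10 miRNAs with the highest mean early values and the right panel the 10 largest rises among those detected on all 8 arrays. Blue shading marks the early and red shading the late arrays. At left most lines stay level to 12 h and drop from 24 h on, while at right most lines have climbed by 6 h.

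Among 15 miRNAs listed for hepatocytes and liver, 15 were called lower, against 35.5% of all tested, and the late values of all 15 lay below the early values. The median difference of the 15 was -3.28, against 0.69 over all tested, and it stayed negative under the 6 other scalings and corrections, between -4.38 and -1.58. Of the 15, 13 were detected on all 8 arrays. Among the 130 with numbers under 1000 detected on all 8 arrays, 90 were called lower, with a median of -2.95. Much of the fall was thus shared with other miRNAs. With no scaling 5 of the 15 were called. miR-192-5p and miR-194-5p are made from shared hairpin clusters and are abundant in hepatocytes. miR-192-5p stood at 11.57, 12.06 and 12.05 early and 9.61, 8.16 and 7.57 late (-3.44 ± 0.55, limma adjusted p = 0.00131). miR-148a-3p, another abundant miRNA of hepatocytes, stood at 10.04, 11.23 and 11.36 early, 11.45 and 10.79 at 6 and 12 h and 8.57, 7.28 and 7.64 late. The smallest difference of the list was that of miR-378a-3p, -1.53, which was 0.02 with no scaling and, without the 48 h array, missed the threshold at -1.31 (adjusted p = 0.0526). The other strand of the miR-122 hairpin, miR-122-3p, had a difference of -4.23 ± 0.76, from 7.97, 8.89 and 8.71 early to 5.96, 4.19 and 2.72 late.

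The let-7 family, which shares the seed GAGGUAG printed in let-7f-5p above and restrains growth genes, was lower as a whole. All 9 guide strands of let-7 and miR-98 were called lower, with a median of -3.86 and a range from -4.45 for let-7e-5p to -2.90 for let-7b-5p. let-7f-5p stood at 11.39, 12.05 and 12.01 early, 11.85 and 11.30 at 6 and 12 h and 9.47, 7.76 and 5.53 late. The 96 h value was the lowest for all 9. With no scaling the median was -2.47 and 2 of the 9 were called. Of the passenger strands, which come from the other side of the same hairpins and are mostly discarded in the cell, 3 of 7 tested were called lower, near the background share, with a median of -0.31. Of the 7, 3 were detected on no liver array at RT, and of the 2 detected on all 8 arrays 0 were called lower. With no scaling 3 of the 7 were called higher and 0 lower. The difference of let-7b-3p was -0.21 on the VSN scale and 1.45 with no scaling, so that its direction depended on the scaling.

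Other families of broadly expressed miRNAs followed. Called lower were 5 of 5 miR-30 guide strands (median -3.64), 3 of 3 of miR-29 (-3.63), 5 of 5 of miR-23, 27 and 24 (-3.38), 5 of 5 with the seed of miR-15 and 16 (-3.08), 5 of 5 of miR-99, miR-100 and miR-125 (-3.29) and 2 of 2 of miR-26 (-2.76). Of miR-17-92 and miR-106b-25, clusters tied to cell growth, 8 of 9 were called lower (-3.10), and miR-17-5p had a difference of -1.27 that did not pass. The medians of these 7 families stayed negative under every scaling tried, and with no scaling between 0 and 2 members of each were called. In the miR-181 family, at low values, 1 of 4 was called lower, and its median turned from -1.02 to 0.51 with no scaling. miR-21a-5p, which is raised in many stressed tissues, stood at 12.76, 12.95 and 12.92 early, 13.20 and 12.54 at 6 and 12 h and 10.11, 8.78 and 8.55 late (-3.73 ± 0.49, limma adjusted p = 0.000609). Of 6 tested miRNAs of a list linked to stress, miR-21a, 210 and 34, all 6 were called lower (median -1.79), of which miR-34b-3p and miR-34c-5p were detected on no early and no late array. With no scaling 1 was called (median -0.41), and with control probes as the scale 1 (median -0.23). The call of miR-210-3p, -1.98, was lost without the array of 1, 3, 48 or 96 h, with values from -1.69 to -1.66.

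Liver also holds vessels, stroma and blood, and most markers of these cells were lower as well on the VSN scale. Of 7 miRNAs of vessel and stroma 7 were called lower (median -3.40), against 35.5% of all tested. With no scaling 2 of the 7 were called lower (median -2.06). miR-126a-3p, the miRNA of the endothelium, stood at 9.92, 10.78 and 10.91 early and 8.10, 5.64 and 5.02 late (-4.28 ± 0.78). The weakest of the list, miR-145a-5p of smooth muscle, had -1.33 and 0.13 with no scaling, and lost its call when any of 6 arrays was left out, all but those of 0 and 24 h, with values from -1.40 to -0.95. The list summed to 599 to 1923 units of signal early and 113 to 661 late. Since each array is a part of a liver, fewer cells of a type and less RNA per cell cannot be told apart.

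Of 8 miRNAs of blood cells 6 were called lower and 1 higher (median -3.36), against 35.5% and 42.8% of all tested. With no scaling 3 of the 8 were called lower and 1 higher (median -1.84). miR-142a-3p, found in blood cells of all lineages, stood at 7.87, 10.22 and 9.79 early and 5.54, 3.36 and 2.07 late, a difference of -5.64 ± 0.94 (limma adjusted p = 0.00147, -4.18 with no scaling, adjusted p = 0.0244). Its value at 0 h lay below those at 1 and 3 h. miR-451a of red cells showed the same order, with 8.86, 10.30 and 10.43 early and 8.01, 6.30 and 6.04 late. The member called higher was miR-486a-5p, also of red cells, with 1.97, 2.51 and 3.30 early and 3.78, 4.16 and 4.20 late (1.46 ± 0.43), and it did not pass with the 75th percentile of all miRNAs as the scale or after quantile normalization. The list summed to 448 to 2187 units early and 195 to 672 late, and 5 to 8 of its members were detected early and 6 to 8 late.

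Markers of other organs were low throughout. Of 7 heart and muscle miRNAs 0 were detected on any early array and 3 on each late array, and the list held at most 0.00175% of the signal early and at most 0.0166% late. The heart miRNAs miR-208a-3p, miR-208b-3p and miR-499-5p were detected on no array of liver at RT. miR-206-3p of skeletal muscle was detected on no early or mid array and on all 3 late arrays, where it stood at 3.81, 3.98 and 2.81, at least 4.1-fold above the detection level of the early arrays. Of 7 brain miRNAs 1 to 5 were detected on an early array and 1 to 4 on a late array, with at most 0.0194% of the signal. The brain miRNA miR-124-3p was highest, at 4.61, on the 3 h array, and whether other tissue was on that part was not tested.

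Among the miRNAs detected on all 8 arrays, several of the 10 largest rises were those of miRNAs with UG repeats or runs of G. miR-3082-5p stood at 3.35, 3.44 and 4.63 early, 6.32 and 7.23 at 6 and 12 h and 9.47, 10.97 and 10.12 late, a difference of 6.38 ± 0.56 or 83.3-fold (limma adjusted p = 0.000201). The groups were far apart, and the highest value was that of 48 h. miR-466i-5p, miR-574-5p and miR-1187 ran alongside it. They had differences of 5.60, 5.57 and 5.48, and all 3 were also highest at 48 h. miR-574-5p stood at 4.86, 5.13 and 5.82 early and 10.07, 11.69 and 10.77 late. The letters UGUGUGUG occurred in 6 of 680 tested miRNAs with a known sequence (0.882%), and all 6 were called higher, with a median difference of 5.53. Of all 680, 282 were called higher, and 3 of the 6 were detected on all 8 arrays. In RefSeq 7 of 1679 mature miRNAs hold these letters (0.417%). The letters were picked after the values were seen and from miRNAs counted among the 6, so that the count is a description only. Probes for such near-identical repeats can bind each other's targets, so that these miRNAs are not independent measurements.

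Of the miRNAs with runs of G, miR-2861 stood at 5.42, 6.00 and 7.52 early, 10.09 and 10.64 at 6 and 12 h and 11.68, 12.31 and 12.92 late (5.99 ± 0.61, 63.7-fold, limma adjusted p = 0.000216). miR-6931-5p rose by 6.04 and reached 12.19 at 96 h. miR-8110, with 8.75, 9.07 and 9.67 early and 13.02, 14.79 and 15.29 late, had the highest value of all miRNAs at 96 h. The other rises among the 10 largest were those of miR-7045-5p (5.90), miR-6538 (5.38) and miR-7020-5p (5.32). miR-5126 stood at 8.70, 9.22 and 10.20 early, 13.32 and 13.84 at 6 and 12 h and 13.84, 14.28 and 14.28 late (4.76 ± 0.47). It was close to its late level at 6 h already. All 10 of the largest rises were called higher under each of the 6 other scalings and corrections. The letters GGGG occurred in 120 of 680 tested miRNAs (17.6%), of which 87 were called higher and 7 lower. Of all 680, 282 were called higher and 249 lower. Of the 120, 44 were detected on all 8 arrays, of which 30 were called higher and 3 lower. In RefSeq the letters occur in 188 of 1679 miRNAs (11.2%), which unlike those tested were not filtered by detection. These letters too were picked from the miRNAs that rose most. They also occur in miR-6366, which was called lower.

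For miRNAs detected in 1 group only, the early or late level is a bound. They were chosen by detection on the same arrays that are compared, so that the choice favours the direction of each change. miR-6349 was detected on no early array and stood at 3.83 and 4.23 at 6 and 12 h and at 4.59, 7.05 and 7.40 late, at least 28.9-fold above the detection level of the early arrays (limma adjusted p = 0.000729). The same bound was at least 17.2-fold for miR-546, 9.49-fold for miR-6899-5p, 7.83-fold for miR-187-5p and 5.38-fold for miR-7238-5p. Of the 11 detected on all early and no late arrays, 10 had numbers under 1000. miR-301a-3p stood at 3.94, 5.23 and 5.11 early and 4.89 and 4.12 at 6 and 12 h and was not detected at 24, 48 or 96 h, at least 15.9-fold lower. For miR-32-5p the bound was 9.18-fold, for miR-18a-5p of the miR-17-92 cluster 6.96-fold, for miR-872-5p 5.69-fold and for miR-3962 4.88-fold. All 5 were still detected at 6 and 12 h.

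The time of the change was then set side by side for those called higher and lower. Of the 349 called higher, 175 were highest on the 96 h array, 81 on the 48 h array, 36 on the 24 h array and 43 on the 6 h array. Of the 289 called lower, 204 had their lowest value at 96 h and 54 at 48 h. By the mid arrays those called higher had made a median of 72.5% of their late change and those called lower 20.6%. Among those detected on all 8 arrays the shares were 67.6% (n = 75) and 10.3% (n = 100). With no scaling the 75 had a median mid minus early difference of 3.38 and a late minus early difference of 4.77, and the 100 had 0.74 and -1.78. The signals of the latter were thus, in the median, above their early mean in the mean of 6 and 12 h. They were below it in the mean of 24, 48 and 96 h.

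Some miRNAs peaked between early and late. miR-3473b stood at 6.98, 8.56 and 10.91 early, 12.04 and 11.58 at 6 and 12 h and 11.52, 8.97 and 8.38 late. It climbed within the first 3 h, peaked at 6 h and fell after 24 h, and the late minus early difference of 0.81 ± 1.10 did not pass (limma adjusted p = 0.52). Of 6 tested members 3 were called higher, miR-3473c, miR-3473e and miR-3473f, which is near the background share. With the 75th percentile of all miRNAs as the scale all 3 calls were lost, at 0.53, 2.85 and 3.13 (adjusted p = 0.096, 0.104 and 0.0637 by limma), and that of miR-3473c was lost after quantile normalization as well. miR-3473f stood at 1.87, 4.08 and 6.20 early, 9.11 and 9.14 at 6 and 12 h and 8.58, 7.62 and 7.89 late. The difference of miR-3473a, 1.45, passed when the 3 h array was left out, at 2.59 (adjusted p = 0.0364). miR-5128 had a like course, with 3.66, 6.20 and 8.03 early, 10.57 and 10.31 at 6 and 12 h and 8.71, 7.96 and 8.00 late, and its difference of 2.26 passed only without the 3 h array (3.29, adjusted p = 0.00487), with no scaling, with the control probes as the scale and after normexp.

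Mirtrons, miRNAs spliced out of short introns without the enzyme Drosha, held both steady rises and a jump at 96 h. Of 7 tested 3 were called higher, near the background share. miR-877-5p stood at 1.03, 1.55 and 4.03 early, 6.58 and 7.83 at 6 and 12 h and 7.98, 8.77 and 9.07 late (6.40 ± 0.80, limma adjusted p = 0.000513). miR-3102-5p stood at 5.57, 6.44 and 6.68 early and 8.22, 8.86 and 12.98 late (3.79 ± 1.12, adjusted p = 0.0142 by limma), and with the 75th percentile of all miRNAs as the scale its difference of 2.72 did not pass (adjusted p = 0.124). Under that scale 1 of the 7 mirtrons was called higher and 1 lower. miR-1224-5p stood at 8.34, 9.47 and 8.81 early and 8.89, 10.30 and 14.33 late (2.31 ± 1.21, adjusted p = 0.109 by limma), and without the 24 h array its difference was 3.45 (adjusted p = 0.0218). In both, the 96 h value was far above the 48 h value. The mirtron list held 0.112% to 0.154% of the signal early, and 0.759% to 14.0% late.

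The 2 strands of a hairpin did not always go together. Both strands of 15 hairpins were detected on all 8 arrays. In miR-122, miR-126a, miR-199a, miR-22 and miR-1839 both were called lower, with differences from -4.28 to -2.75, and in miR-7047 both were called higher. In miR-125a the 5p strand had -2.81 and the 3p strand 4.51, both called. The 5p strand of miR-149 stood at 3.79, 3.43 and 2.76 early and 2.75, 3.06 and 2.82 late and was not called (-0.45, and 1.17 with no scaling). Its 3p strand, rich in G, stood at 2.76, 3.02 and 4.47 early and 7.80, 8.68 and 8.96 late (5.07 ± 0.55, limma adjusted p = 0.000282). The 2 strands of miR-149 are printed here because their base content differs this far.
miR-149-5p (chr1:92850381-92850403, + strand): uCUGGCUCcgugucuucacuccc
miR-149-3p (chr1:92850421-92850442, + strand): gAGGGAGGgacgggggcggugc
In miR-574 the 5p strand with UG repeats had 5.57 and the 3p strand 0.93, and in miR-652 the strands had -0.63 and -3.25. Strands of 1 hairpin share its transcription and are different probes on the array.

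The difference went with base content. Over the 193 miRNAs detected on all 8 arrays with a sequence in RefSeq, Spearman's rho between the late minus early difference and the share of G was 0.55, with G and C together 0.68, with U -0.50 and with length -0.02. These are descriptions across miRNAs, which share the arrays and in part the sequence, and no p is given. With under 20% G, 25 of 50 were called lower and 8 higher. Between 20% and 30% G, 37 of 42 were called lower. At 50% G or more, 29 of 38 were called higher and 1 lower, with a median difference of 3.43. The medians of the 5 classes from low to high G were -2.12, -3.10, -2.85, 1.75 and 3.43. High numbers go with high G, and within numbers under 1000 the median was -3.07 below 40% G (n = 99) and 2.72 at 40% or more (n = 12). Within numbers of 3000 or higher it was 0.76 (n = 22) and 2.57 (n = 45).

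**Figure D4:**
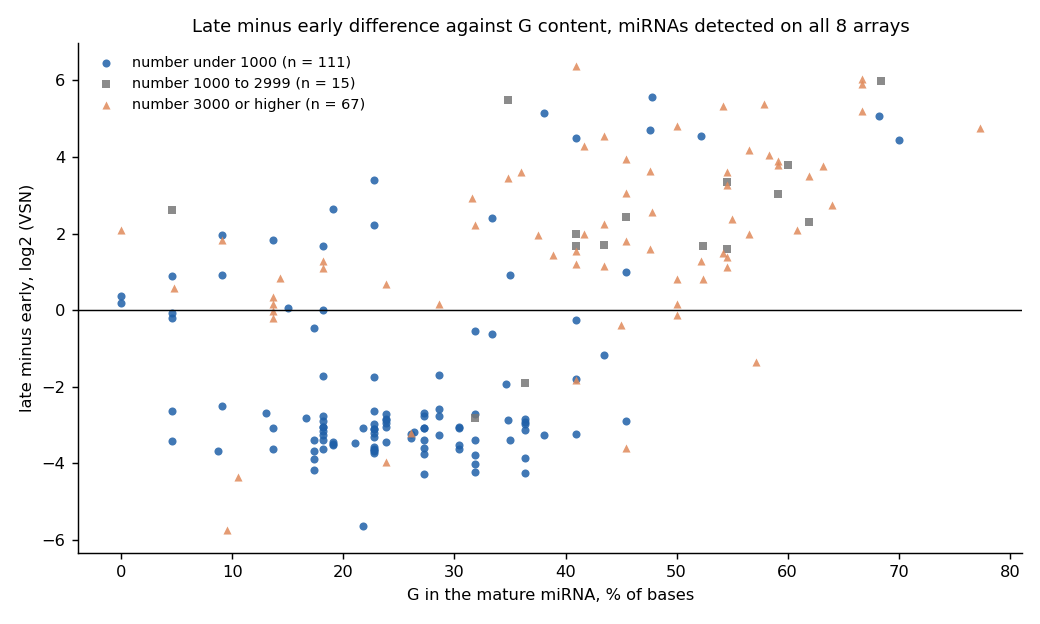
Each point is 1 of 193 miRNAs detected on all 8 liver RT arrays, with the share of G in the mature sequence in percent on the x axis and the late minus early difference in log2 (VSN) on the y axis, by the number in the miRNA name. Above 50% G most points lie above 0, and between 20% and 30% G nearly all of them lie below.

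miRNAs used as references were not level. Of 8 common reference miRNAs 7 were called lower (median -2.91), 0 with no scaling (median -1.26). Of these 7 calls 1 is of a miRNA detected on no liver array at RT. miR-16-5p stood at 8.78, 9.47 and 9.66 early and 7.50, 6.22 and 6.13 late. miR-423-5p was the 1 not called, at -1.17 (limma adjusted p = 0.0816), and it passed without the 0 h array at -1.59 (adjusted p = 0.0302) and without the 24 h array at -1.63 (adjusted p = 0.0219). The smallest SD over the 8 arrays among those detected on all 8 belonged to miR-7224-3p, miR-3620-3p, miR-484, miR-7080-3p and miR-7022-3p. miR-484 stood at 2.43, 2.66 and 2.46 early, 2.14 and 1.94 at 6 and 12 h and 2.35, 2.56 and 2.60 late. These values are level only on the VSN scale: with no scaling the 5 had differences of 1.47, 1.59, 1.73, 1.53 and 1.97, and all 5 were called higher.

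Heart and brain of the same storage series, with 8 arrays each, were fitted together with liver to ask where the late minus early difference was particular to liver. Liver, heart and brain arrays of 1 time come from the same animal by the study's methods. The difference itself differed between liver and heart for 246 of 815 miRNAs (30.2%), 97 more positive and 149 more negative in liver, and between liver and brain for 289 (35.5%), 123 and 166 (limma adjusted p under 0.05). Each tissue is 1 slide, and the RNA of the late heart arrays had RIN values of 8.2, 4.6 and 2.2 and that of the late brain arrays of 7.3, 5.5 and 3.3, so that tissue, slide and RIN cannot be told apart. Without the 96 h liver array the counts were 162 and 205. The split by direction depended on the scaling. With no scaling liver was more positive for 117 and more negative for 67 against heart, and for 124 and 49 against brain. With the 75th percentile of miRNAs detected on all 8 liver arrays as the scale these numbers were 192 and 142, and 203 and 144. With control probes as the scale, chosen after seeing the data, they were 98 and 28, and 78 and 20. With storage time as a replicate block, a fit chosen after seeing the data, 375 differed from heart, 185 more positive and 190 more negative, and 406 from brain, 204 and 202.

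On the VSN scale the groups called lower in liver moved little in heart and brain. The contrasts of lists and of single miRNAs between tissues are given on this scale only. The median of the 9 let-7 guide strands was -3.86 in liver, -0.41 in heart and -0.63 in brain, and liver differed from heart and from brain in 9 of 9. For the 5 of miR-30 the medians were -3.64, -0.66 and -0.36, with 5 of 5 different from each. miR-142a-3p had -5.64 in liver, 0.41 in heart and -1.17 in brain. miR-6366, by contrast, had -3.60, -3.18 and -2.66, and neither difference between tissues passed (adjusted p = 0.73 against heart and 0.396 against brain by limma). Its liver value differed from that in heart by -0.42 ± 0.89 and from that in brain by -0.94 ± 0.89 (SE).

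Several differences were positive in all 3 tissues. miR-5126 had 4.76 in liver, 2.62 in heart and 2.68 in brain, and miR-149-3p had 5.07, 2.49 and 2.88, where no difference between tissues passed without the block. With storage time as a block those of miR-5126 passed (adjusted p = 0.0155 against heart and 0.016 against brain by limma), as did those of miR-149-3p (adjusted p = 0.00499 and 0.0113 by limma). miR-3473f had 3.98, 5.13 and 4.48. The miRNAs with UG repeats rose further in liver: miR-3082-5p had 6.38 in liver, 2.65 in heart and 2.23 in brain, and its difference passed against both tissues. Of the tested miRNAs with numbers of 3000 or higher 52 of 308 differed between liver and heart and 58 between liver and brain, against 187 and 224 of 459 with numbers under 1000.

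**Figure D5:**
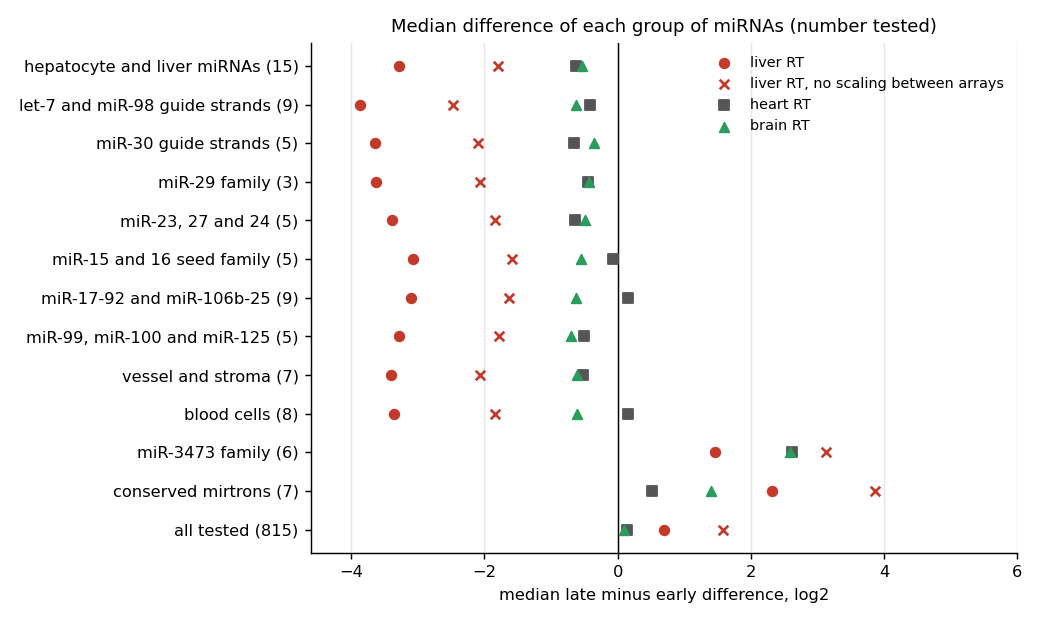
Each row is a group of miRNAs with the number tested in brackets, and the x axis is its median late minus early difference in log2. Red circles are liver RT on the VSN scale, red crosses the same with no scaling between arrays, grey squares heart RT and green triangles brain RT. Heart and brain are shown on the VSN scale only. For the groups from liver to blood the liver circles lie between -3.86 and -3.08, while heart and brain lie between -0.69 and 0.16.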

How the data were processed

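Mouse liver RNA stored at RT was measured on 8 of 46 Agilent miRNA arrays (1881 miRNAs, 30 spots each). The authors extracted total RNA with the miRNeasy kit, read intensity with Feature Extraction, corrected background and deposited a table of log2 values normalized with VSN over 46 arrays. These log2 values were the main data. The deposited scanner intensity of each miRNA (total gene signal) and its detection flag were used for detection, signal shares and other scalings. The arrays' number limits the precision.

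Groups came from the labels: early (0, 1 and 3 h), mid (6 and 12 h) and late (24, 48 and 96 h). limma 3.58.1 in R 4.3.3 was fitted to the 8 arrays with 1 mean per group over the 815 miRNAs detected on at least 5 of 45 arrays, with Benjamini-Hochberg adjustment over all 815 and a threshold of 0.05. The 45 leave out the heart array of 0 h at 4 °C, as the methods do. The tests between tissues used the 24 RT arrays in the same way. All were tested on simulated data. For a miRNA not detected on any array of a group, folds are lower bounds against the lowest signal called detected on each array of that group, as means of log2 values. Alternatives changed the scaling, background, filter, fit, adjustment or arrays. Normexp used the median spot signal with an offset of 50. Control probes as the scale and storage time as a block across tissues were added after seeing the data.

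Single miRNAs were named from lists of families, cell types and classes, and as the 10 largest rises and falls called, not overlapping and detected on all 8 arrays, the 5 largest gained and 5 lost from detection, the 10 with the highest early mean and the 5 with the smallest SD. The members and lists were chosen with earlier results of these data known, and 1 list holds miRNAs named in that work. Sequences came from RefSeq (GRCm38.p6) and matched 680 of 815 names.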

Additional observations from a re-analysis of the deposited data

Results flagged for a closer look

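The late minus early difference in liver was tested against that in heart and that in brain. The miRNAs below stood out because the difference between tissues passed in limma at an adjusted p under 0.05. This held for 246 of 815 miRNAs against heart and 289 against brain, and for 25 of the 41 named miRNAs against both. The 41 were named by their values on the same liver arrays that enter this test, so that 25 of 41 is a description only. The share of all 815 that differed from both tissues is not given here. Each value below is the liver difference minus that of heart, then minus that of brain, in log2 on the VSN scale. On that scale 149 miRNAs were more negative in liver than in heart and 166 than in brain. With no scaling these counts were 67 and 49, and with control probes as the scale 28 and 20. Which of the miRNAs below pass under those scales is not given here.

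Liver rose further for the miRNAs with UG repeats, by 3.73 and 4.15 for miR-3082-5p, 3.34 and 3.72 for miR-466i-5p, 3.34 and 3.51 for miR-574-5p and 3.14 and 3.92 for miR-1187. It also rose further by 4.41 and 4.51 for miR-7045-5p, 4.56 and 3.95 for miR-7020-5p and 6.09 and 5.75 for miR-6349.

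Liver was the more negative for let-7, with -3.78 and -3.46 for let-7d-5p, -3.85 and -3.46 for let-7f-5p and -3.61 and -3.45 for let-7g-5p. It was so too for miRNAs of hepatocytes, with -3.56 and -3.49 for miR-122-5p, -2.94 and -2.99 for miR-122-3p and -3.04 and -2.83 for miR-192-5p. For miRNAs of blood and endothelium the values were -6.05 and -4.47 for miR-142a-3p and -3.66 and -3.32 for miR-126a-3p. Broadly expressed miRNAs had -3.92 and -3.18 for miR-21a-5p, -2.16 and -2.21 for miR-22-3p, -2.71 and -2.81 for miR-29a-3p, -4.25 and -3.24 for miR-19a-3p and -4.21 and -3.21 for miR-18a-5p. The others had -4.81 and -4.10 for miR-301a-3p, -3.29 and -3.14 for miR-32-5p, -2.35 and -2.11 for miR-872-5p, -2.83 and -2.47 for miR-3962 and -2.46 and -3.60 for miR-5100. In liver the late RNA had RIN values of 2.7 and lower while that of heart and brain at 24 h had 8.2 and 7.3, and its part in these differences was not tested.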

How the results depend on the processing

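The counts of 349 higher and 289 lower kept within 1.5 times with the early and late arrays alone, with an intensity trend in limma, with a slope on log2 of hours, with a 2-fold minimum, with quantile normalization, after normexp and with the 75th percentile of miRNAs detected on all 8 arrays as the scale. Leaving out 1 array gave 308 to 360 higher and 264 to 287 lower. They moved further with the 75th percentile of all miRNAs as the scale (211 higher), with no scaling (56 lower) and with control probes as the scale, chosen after seeing the data (41 lower). With the tested miRNAs restricted to those detected on at least 3 of the 8 arrays 188 were lower, with those detected on all 8 arrays 75 were higher and 100 lower of 225, and with no filter 578 and 629 of 1881. Bonferroni adjustment left 67 and 10. The rank test of the methods with 2-fold, in its exact form, called 0 and 0, since 3 against 3 cannot go below p = 0.1, while limma gave 655 miRNAs an unadjusted p under 0.05.

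The count that differed from heart was 126 with control probes as the scale and 162 to 305 with 1 liver array left out. With storage time as a replicate block, chosen after seeing the data, it was 375, and all 25 miRNAs named above as differing from both tissues passed in this paired fit against both. The 25 were chosen because they passed the same contrasts on the same arrays, and the block called more miRNAs, so that this is a description only. Same-time arrays of liver and another tissue had correlations between -0.23 and 0.51 of their deviations from the group means. Within liver alone there is 1 array per time and nothing to pair. That from brain was 406 with the block, 173 with no scaling, 98 with control probes and 205 to 347 with 1 liver array left out.

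The median of numbers under 1000, -1.59, was 0 with no scaling, -0.34 with the 75th percentile of miRNAs detected on all 8 arrays, -0.83 with that of all miRNAs, 0 with control probes, -1.84 after quantile normalization, -0.13 after normexp and -2.95 over those detected on all 8 arrays. That of numbers from 1000 to below 3000, 2.40, was 3.29, 1.76, 0.97 and 3.47 under the same first 4 scalings and 0.43 after normexp. That of numbers of 3000 or higher, 2.52, was 3.24 with no scaling, 1.30 with the 75th percentile of all miRNAs, 3.33 with control probes, 2.16 after quantile normalization, 0.34 after normexp and 1.82 over those detected on all 8 arrays.

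Of 141 miRNAs named or listed, 11 turned sign with no scaling and with control probes, having been called on 1 side at least. The differences were then 1.45 and 1.66 for let-7b-3p, 1.63 and 1.84 for let-7f-1-3p, 0.13 and 0.34 for miR-145a-5p, 1.17 and 1.38 for miR-149-5p, 1.17 and 1.38 for miR-181b-5p, 1.59 and 1.80 for miR-3620-3p, 0.018 and 0.23 for miR-378a-3p, 1.73 and 1.94 for miR-484, 1.57 and 1.78 for miR-6769b-3p, 1.53 and 1.74 for miR-7080-3p and 1.47 and 1.68 for miR-7224-3p. With the 75th percentile of all miRNAs as the scale that of miR-7022-3p turned, to -0.69. With no scaling 57 further calls were lost, and under each other planned scaling, fit or left-out array at most 6.

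The cause of these moves was not tested. No value has a repeat at its own time, 1 liver was stored, and signal near background limits the low values. Of 87 named or listed miRNAs with 2 or more usable probes, 86 had the same sign on all their probes, in signal with no scaling between arrays. The exception was miR-378a-3p. The sign of the probes was not always that of the VSN difference. Both probes of miR-149-5p were positive (0.66 and 1.41) and its VSN difference was -0.45.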
